A study of Mus musculus with 12 samples.

Results

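The wild-type (WT) mouse heart was sequenced 3 times in each of 2 experiments, and these 6 libraries, of 12 in the series, give the transcriptome of the normal heart together with the difference between its repeats. The first group was the WT of the experiment on HDAC3 knockout (KO) hearts, and the second was the WT of the experiment on NS-DADm hearts, in which the labels call HDAC3 inactive. The KO and NS-DADm hearts, 3 libraries each, carry the mutations and enter here only as a second view of the same experiments. All 15471 genes listed by the same symbol in both deposited tables were taken, whatever their values. Strain, sex, age, the hour of collection and whether the WT animals carried a Cre transgene or floxed alleles are not given in the sources used here. Each group was compared by the labels with its own WT, and the title of the series places the work in the adult heart. The labels call the replicates biological without naming animals, so the spread between libraries may be partly technical.

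The heart beats without pause, and its RNA pool is known to be led by the proteins of the contractile apparatus and by the mitochondrial machinery that supplies ATP. Thick filaments of myosin pull on thin filaments of actin, tropomyosin and troponin when calcium is released from the sarcoplasmic reticulum, and most of the ATP comes from the oxidation of fatty acids. Cardiomyocytes hold most of this RNA, while endothelial cells, fibroblasts, smooth muscle cells and macrophages outnumber them. The heart also has a circadian clock, in which ARNTL and CLOCK drive the Per, Cry, Nr1d and PAR bZip genes. The products of the Per, Cry and Nr1d genes in turn repress the drivers, so that clock transcripts vary with the hour of the day.

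Levels are FPKM (fragments per kilobase of transcript and per M, mega, of mapped fragments), a unit per length, so genes can be ranked within a library. The depth estimated from the low FPKM values was 8.3 to 8.9 M fragments in KO-experiment WT hearts and 10.4 to 11.1 M in NS-DADm-experiment WT hearts. At these depths 1 FPKM in a transcript of 2000 bases corresponds to about 16.6 to 17.8 fragments in KO-experiment WT hearts and 20.8 to 22.2 in NS-DADm-experiment WT hearts. The summed FPKM of the shared genes was 629011 to 639455 in KO-experiment WT hearts and 520446 to 548932 in NS-DADm-experiment WT hearts. Across 11096 genes the log2 values of 2 libraries had Pearson correlations of 0.996 within the KO-experiment WT group, 0.990 to 0.995 within the NS-DADm-experiment WT group and 0.972 to 0.981 between the groups, as a description over genes that share library and length. Replicate 3 of the NS-DADm-experiment WT group stood apart from its replicates by its atrial genes, and values that changed by over 1.5 times or lost a 2-fold call without it are given both ways.

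The heart label held in all 6 libraries. The 13 cardiomyocyte markers summed to 59367 to 61762 FPKM in KO-experiment WT hearts and 52396 to 57273 FPKM in NS-DADm-experiment WT hearts, and 8 of them were among the 100 most abundant genes of each group. Liver markers summed to 0.17 to 0.27 FPKM in KO-experiment WT hearts and 0.65 to 5.62 FPKM in NS-DADm-experiment WT hearts, and lung markers to 0.09 to 0.1 FPKM in KO-experiment WT hearts and 0.14 to 0.28 FPKM in NS-DADm-experiment WT hearts. Endothelial markers summed to 3312 to 3583 FPKM in KO-experiment WT hearts and 2265 to 2337 FPKM in NS-DADm-experiment WT hearts, a gap held by Fabp4 and Cd36, which are also fatty acid genes. In a sum chosen after seeing the data, the other 11 endothelial markers came to 476 to 489.7 FPKM in KO-experiment WT hearts and 498 to 556 FPKM in NS-DADm-experiment WT hearts. Fibroblast markers summed to 1606 to 1650 FPKM in KO-experiment WT hearts and 1202 to 1486 FPKM in NS-DADm-experiment WT hearts. In whole hearts fewer cells of a type and less RNA per cell cannot be told apart.

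Which transcripts lead the normal heart was asked of each WT group in its own table. Contractile genes took the first place and most of the next ones in both groups. Myl2, the ventricular regulatory light chain of myosin (chr5:122092724-122113473, GRCm38.p6), was the most abundant gene of both groups. It stood at 23756, 22717 and 22060 FPKM in KO-experiment WT hearts, against 19788, 21253 and 16414 FPKM in NS-DADm-experiment WT hearts, and the groups did not overlap as deposited. Its log2 difference was 0.26, and 0.155 without replicate 3 of the NS-DADm-experiment WT. With each library brought to the same sum, Myl2 was no longer higher without overlap. Myoglobin, Mb (chr15:77015487-77050668), the oxygen store of muscle, was second in both, at 19148, 20534 and 19128 FPKM in KO-experiment WT hearts and 15676, 15470 and 13476 FPKM in NS-DADm-experiment WT hearts. Cardiac actin, Actc1 (chr2:114047282-114052875), ranked 3 in both at 11217, 11282 and 11384 FPKM in KO-experiment WT hearts, against 12137, 10999 and 10476 FPKM in NS-DADm-experiment WT hearts, values that overlapped.

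Tropomyosin, the troponins and the second light chain followed at values that hardly separated the groups. Tpm1, the tropomyosin of cardiac thin filaments, ranked 4 in both with 9284, 8998 and 8555 FPKM in KO-experiment WT hearts and 9549, 9488 and 9233 FPKM in NS-DADm-experiment WT hearts. Tnni3, the inhibitory troponin, held 8687, 8159 and 7732 FPKM in KO-experiment WT hearts and 7793, 7786 and 7025 FPKM in NS-DADm-experiment WT hearts. Tnnt2, the troponin that binds tropomyosin, held 8522, 8128 and 7533 FPKM in KO-experiment WT hearts and 7316, 7976 and 7181 FPKM in NS-DADm-experiment WT hearts. Myl3, the ventricular essential light chain, ranked 8 in KO-experiment WT hearts and 7 in NS-DADm-experiment WT hearts. None of these 4 genes separated the groups, and Tnnc1, the calcium-binding troponin, ranked 11 in KO-experiment WT hearts and 12 in NS-DADm-experiment WT hearts.

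Myosin heavy chain stood below its light chains on the per-length scale. Myh6, the fast adult heavy chain of the mouse, was at 4259, 4077 and 3950 FPKM in KO-experiment WT hearts, rank 15, and at 5189, 5466 and 5984 FPKM in NS-DADm-experiment WT hearts, rank 9. The slow chain Myh7 was at 17.17, 17.09 and 15.92 FPKM in KO-experiment WT hearts and 23.68, 32.08 and 33.20 FPKM in NS-DADm-experiment WT hearts. Both chains were lower in every KO-experiment WT library than in any NS-DADm-experiment WT library, with log2 differences of -0.44 for Myh6 and -0.78 for Myh7. The giant protein titin, Ttn, which runs from Z-disc to M-line, had only 51.58, 52.97 and 51.49 FPKM in KO-experiment WT hearts and 53.37, 59.14 and 66.46 FPKM in NS-DADm-experiment WT hearts.

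Calcium handling and energy transfer filled the ranks behind the sarcomere. Pln, the inhibitor of the calcium pump, was at 4020, 3866 and 4133 FPKM in KO-experiment WT hearts and 4007, 3966 and 3432 FPKM in NS-DADm-experiment WT hearts. Atp2a2, the pump itself, was at 3592, 3782 and 3681 FPKM in KO-experiment WT hearts and 3658, 3818 and 3926 FPKM in NS-DADm-experiment WT hearts. Neither gene separated the groups, nor did Slc25a4, the carrier that exchanges ADP for ATP across the inner mitochondrial membrane, at rank 14 in KO-experiment WT hearts and rank 10 in NS-DADm-experiment WT hearts. Fabp3, which carries fatty acids through the cytosol, ranked 5 at 8633, 8421 and 8506 FPKM in KO-experiment WT hearts, against 5981, 6010 and 5057 FPKM in NS-DADm-experiment WT hearts, where it ranked 8. Gapdh of glycolysis ranked 9 in KO-experiment WT hearts and 11 in NS-DADm-experiment WT hearts.

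**Figure D1:**
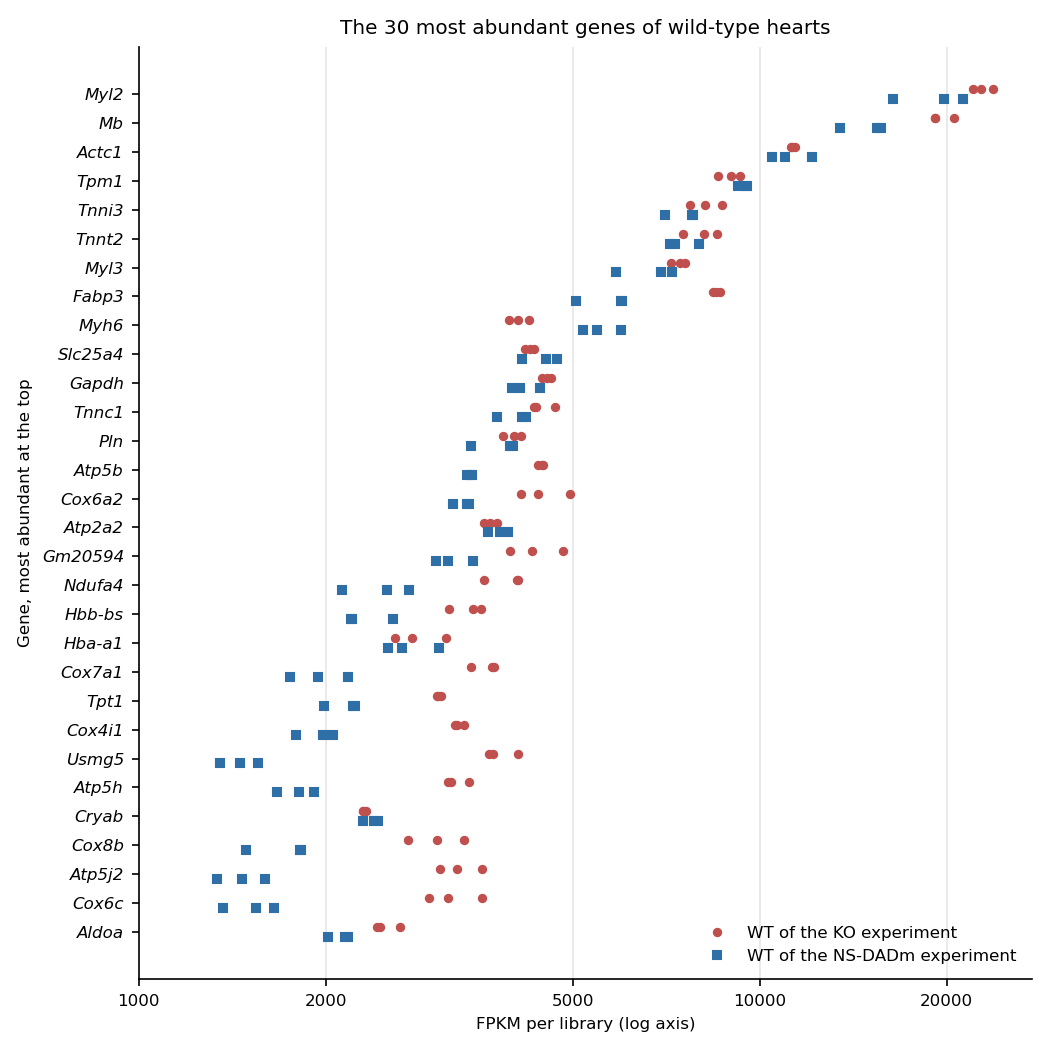
Levels of the 30 most abundant genes in the 6 WT libraries on a log axis of FPKM, 1 point a library, KO-experiment WT above NS-DADm-experiment WT for each gene. Myl2 leads in both groups, the sarcomere and respiratory genes fill most rows, and the groups are widest apart for Usmg5.

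Summed over whole lists, oxidative phosphorylation held more of the transcriptome than any single contractile list. The 78 nuclear subunits of the respiratory chain and ATP synthase took 16.0 ± 0.138% of the summed FPKM in KO-experiment WT hearts and 13.1 ± 0.401% in NS-DADm-experiment WT hearts (SD, n = 3 each), and 37 and 36 of them were among the top 100 genes. The thin filament took 6.58 ± 0.171% in KO-experiment WT hearts and 7.56 ± 0.123% in NS-DADm-experiment WT hearts, the thick filament 5.59 ± 0.143% and 6.19 ± 0.250%, and cytosolic ribosomal proteins 7.03 ± 0.144% and 6.15 ± 0.141%. Fatty acid uptake and oxidation took 4.34 ± 0.0780% in KO-experiment WT hearts and 3.65 ± 0.105% in NS-DADm-experiment WT hearts, the citric acid cycle 2.17 ± 0.0328% and 2.11 ± 0.00771%, and glycolysis 2.41 ± 0.0431% and 2.43 ± 0.0338%. Erythroid genes, led by the globins, took 1.36 ± 0.0965% in KO-experiment WT hearts and 1.35 ± 0.0946% in NS-DADm-experiment WT hearts. Hbb-bs, a beta globin whose reads can be shared with near-identical copies, ranked 21 in both groups. Mitochondrially encoded genes are not analysed here, so these shares are of nuclear transcripts.

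The pool was steep in both groups. The 10 most abundant genes held 16.4 ± 0.297% of the summed FPKM in KO-experiment WT hearts and 17.1 ± 0.738% in NS-DADm-experiment WT hearts, and the top 100 held 44.3 ± 0.481% and 42.1 ± 1.05% (SD, n = 3 each). Between 10962 and 10994 genes reached 1 FPKM in KO-experiment WT libraries and between 10902 and 11067 in NS-DADm-experiment WT libraries, while 86 to 91 and 69 to 74 reached 1000 FPKM. The groups shared 8 of their top 10 genes, 23 of their top 30, 87 of their top 100 and 459 of their top 500. Exact places carry little weight: among the first 30 genes, 25 of 29 neighbouring pairs in KO-experiment WT hearts and 23 of 29 in NS-DADm-experiment WT hearts had overlapping ranges. Over all 11096 genes that passed the filter of at least 1 FPKM in at least 3 of the 6 libraries, the group means had a Spearman rho of 0.975. The other 4375 genes did not pass.

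What differed between the WT groups was described gene by gene, because the tables were normalized separately and no test across them was made. A gene was counted as different when the 3 values of the KO-experiment WT group all lay on one side of the 3 values of the NS-DADm-experiment WT group and the means differed at least 2-fold on the log2(FPKM + 1) scale, which understates the fold of low genes. By this rule 196 of 11096 genes differed, 1.77%, of which 153 were higher in KO-experiment WT hearts (1.38%) and 43 lower (0.388%). Without the size limit 5712 genes (51.5%) did not overlap, 3451 higher (31.1%) and 2261 lower (20.4%). Differences were small for most genes, since 88.7% lay within 0.5 on the log2 scale. The split depends on the scale. Bringing each library to the same sum over the shared genes moved the median difference of all genes by -0.21, to -0.17, and the higher genes then made up 21.4% of those that did not overlap, against 60.4% as deposited. On that scale 12.6% of all genes were higher and 46.2% lower without overlap, the shares against which rescaled counts of a list are read.

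**Figure D2:**
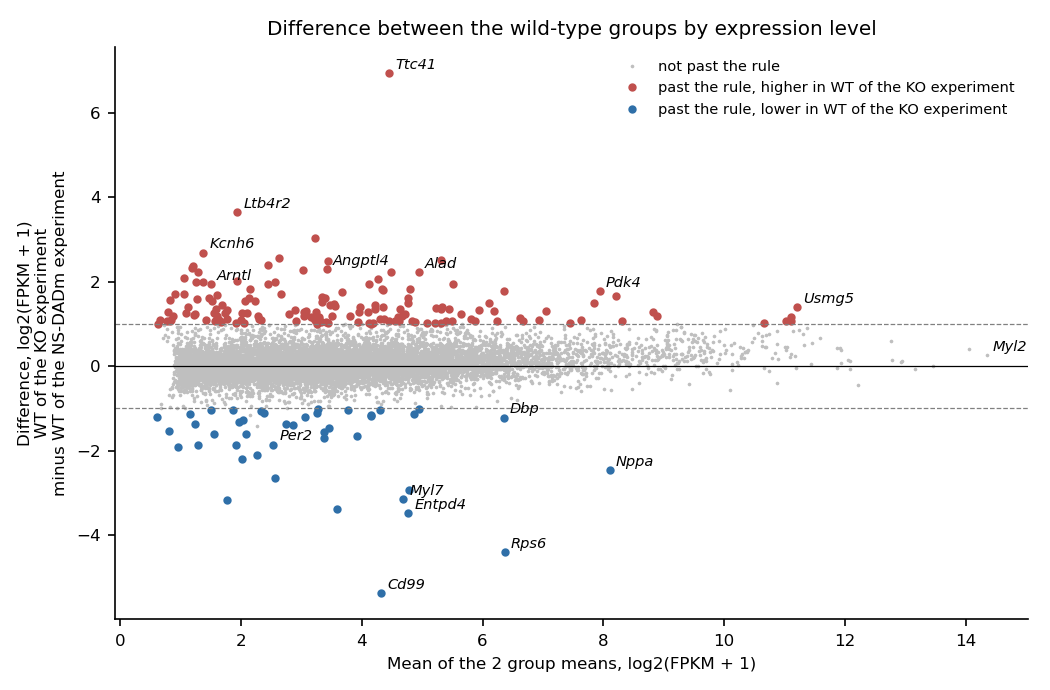
Log2 difference of FPKM + 1, WT of the KO experiment minus WT of the NS-DADm experiment, against mean log2 level for the 11096 filtered genes; coloured points are the 153 higher and 43 lower genes. The points past the 2-fold lines are spread over all levels up to that of Usmg5, and the extremes are Ttc41 above and Cd99 below.

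The most abundant of the differing genes was Usmg5, a small subunit of mitochondrial ATP synthase. It stood at 4086, 3715 and 3660 FPKM in KO-experiment WT hearts, rank 18, against 1558, 1455 and 1354 FPKM in NS-DADm-experiment WT hearts, rank 42 (log2 difference 1.39). Of the 113 genes in the top 100 of either group, 6 had means at least 2-fold apart, and the median move was 7 places. Lpl, the lipase that frees fatty acids from lipoproteins, went against its list, with 1629, 1614 and 1675 FPKM in KO-experiment WT hearts, rank 55, and 2001, 2375 and 2079 FPKM in NS-DADm-experiment WT hearts, rank 22.

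Clock genes were mostly lower in KO-experiment WT hearts, with their driver Arntl higher. Of 18 clock genes that passed the filter, 12 were lower without overlap in KO-experiment WT hearts (background 20.4%) and 3 were higher (background 31.1%). Past 2-fold 6 were lower (background 0.388%) and 1 was higher (background 1.38%). The higher gene, Arntl, was under 1 FPKM in every NS-DADm-experiment WT library and passed the filter only through KO-experiment WT libraries. It lost the call when any 1 of these was left out, since 3 libraries at 1 FPKM were required. The median difference was -0.49 as deposited and -0.70 after rescaling to equal sums, with 13 lower and 2 higher (backgrounds 46.2% and 12.6%). Without replicate 3 of the NS-DADm-experiment WT group the median was -0.44, and 6 were lower and 1 higher past 2-fold.

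Promoters of 3 clock genes are printed because they hold the letters that clock factors are known to bind in mammals, CACGTG of the E-box read by ARNTL and CLOCK, and TTATGTAA of the D-box read by DBP, TEF and HLF. They run from 250 bases before to 50 bases after the transcript start, 5′ to 3′ on the gene's strand, from RefSeq on GRCm38.p6. Capitals mark the matches. The Ciart window is chr3:95882179-95882478 on the minus strand, that of Per1 is chr11:69098699-69098998 on the plus strand, and that of Per3 is chr4:151044616-151044915 on the minus strand.
Ciart: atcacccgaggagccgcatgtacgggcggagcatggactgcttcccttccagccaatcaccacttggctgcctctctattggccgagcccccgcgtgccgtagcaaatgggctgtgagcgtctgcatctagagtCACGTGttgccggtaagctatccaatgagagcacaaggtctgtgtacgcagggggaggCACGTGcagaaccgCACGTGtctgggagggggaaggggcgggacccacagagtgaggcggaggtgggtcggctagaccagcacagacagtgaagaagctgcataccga
Per1: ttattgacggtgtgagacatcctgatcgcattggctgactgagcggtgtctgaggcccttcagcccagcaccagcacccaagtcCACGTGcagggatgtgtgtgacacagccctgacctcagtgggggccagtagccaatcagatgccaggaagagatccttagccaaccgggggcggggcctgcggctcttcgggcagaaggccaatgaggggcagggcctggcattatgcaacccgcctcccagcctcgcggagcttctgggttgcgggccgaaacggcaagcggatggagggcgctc
Per3: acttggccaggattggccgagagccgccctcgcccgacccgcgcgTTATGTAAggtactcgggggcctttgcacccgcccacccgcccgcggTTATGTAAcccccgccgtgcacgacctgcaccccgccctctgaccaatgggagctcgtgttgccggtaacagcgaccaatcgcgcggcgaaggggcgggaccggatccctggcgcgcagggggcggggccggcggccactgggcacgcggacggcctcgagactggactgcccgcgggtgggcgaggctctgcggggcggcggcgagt
Ciart held 3 copies of CACGTG, Per1 held 1, and Per3 held 2 copies of TTATGTAA and no CACGTG. Of 21 promoter entries for 16 of the 19 clock genes, 6 held CACGTG (those of Bhlhe41, Ciart, Cry1 and Per1 and both of Tef), and 1 held TTATGTAA. Among all 32851 promoters there were 2349 (7.15%) with CACGTG and 308 (0.938%) with TTATGTAA, both strands being searched and the motifs not overlapping. A match describes letters in a window and is not a measured binding site.

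The drivers and most of the driven genes of the clock went opposite ways, with Nr1d1 going the way of the drivers. Arntl, which encodes the driver BMAL1 (chr7:113178471-113314126), was at 4.05, 5.04 and 4.51 FPKM in KO-experiment WT hearts, against 0.36, 0.72 and 0.28 FPKM in NS-DADm-experiment WT hearts (log2 difference 1.94). Its partner Clock was at 7.0, 6.67 and 6.54 FPKM in KO-experiment WT hearts and 4.38, 4.65 and 4.26 FPKM in NS-DADm-experiment WT hearts, without overlap but under 2-fold. Both drivers were thus higher in every KO-experiment WT library. Nr1d1, the repressor REV-ERB alpha, was the other higher gene, at 64.62, 68.67 and 70.52 FPKM in KO-experiment WT hearts and 61.73, 58.46 and 36.32 FPKM in NS-DADm-experiment WT hearts. The log2 difference of Nr1d1 was 0.41, and 0.17 without replicate 3 of the NS-DADm-experiment WT.

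The Period genes, the repressors of ARNTL and CLOCK, were all lower. Per1 was at 7.19, 8.08 and 7.56 FPKM in KO-experiment WT hearts and 27.09, 22.16 and 28.78 FPKM in NS-DADm-experiment WT hearts (log2 difference -1.64). Per2 (chr1:91415977-91459351) was at 2.14, 2.12 and 1.90 FPKM in KO-experiment WT hearts and 8.82, 8.66 and 13.23 FPKM in NS-DADm-experiment WT hearts (-1.86). Per3 was at 4.74, 4.35 and 4.46 FPKM in KO-experiment WT hearts and 10.58, 11.45 and 13.18 FPKM in NS-DADm-experiment WT hearts (-1.20). No library of either group overlapped the other for any of the 3. The cryptochromes, which act with the Period proteins, were lower by less, with log2 differences of -0.56 for Cry1, which was -0.32 without replicate 3 of the NS-DADm-experiment WT, and -0.68 for Cry2.

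The output genes followed the Period genes. Dbp (chr7:45705100-45710203), a PAR bZip activator, was at 56.58, 52.30 and 48.86 FPKM in KO-experiment WT hearts and 150.19, 127.06 and 98.59 FPKM in NS-DADm-experiment WT hearts (log2 difference -1.22). Hlf (chr11:90336535-90390917) of the same family was at 4.85, 5.01 and 5.18 FPKM in KO-experiment WT hearts and 16.73, 15.51 and 18.25 FPKM in NS-DADm-experiment WT hearts (-1.57). Tef, of that family too, was at 42.64, 41.12 and 40.89 FPKM in KO-experiment WT hearts and 76.65, 78.09 and 93.03 FPKM in NS-DADm-experiment WT hearts (-0.97), just under 2-fold, and past it at -1.02 or -1.01 without replicate 1 or 2 of the NS-DADm-experiment WT. Ciart, a repressor of the clock, was at 5.90, 5.58 and 5.33 FPKM in KO-experiment WT hearts and 23.41, 15.02 and 14.76 FPKM in NS-DADm-experiment WT hearts (-1.47). Nr1d2, Bhlhe41 and Rora were lower by 0.36 to 0.41 on the log2 scale, and Nfil3 and Bhlhe40 overlapped. Dbp and Hlf, both lower, held no CACGTG in their windows.

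**Figure D3:**
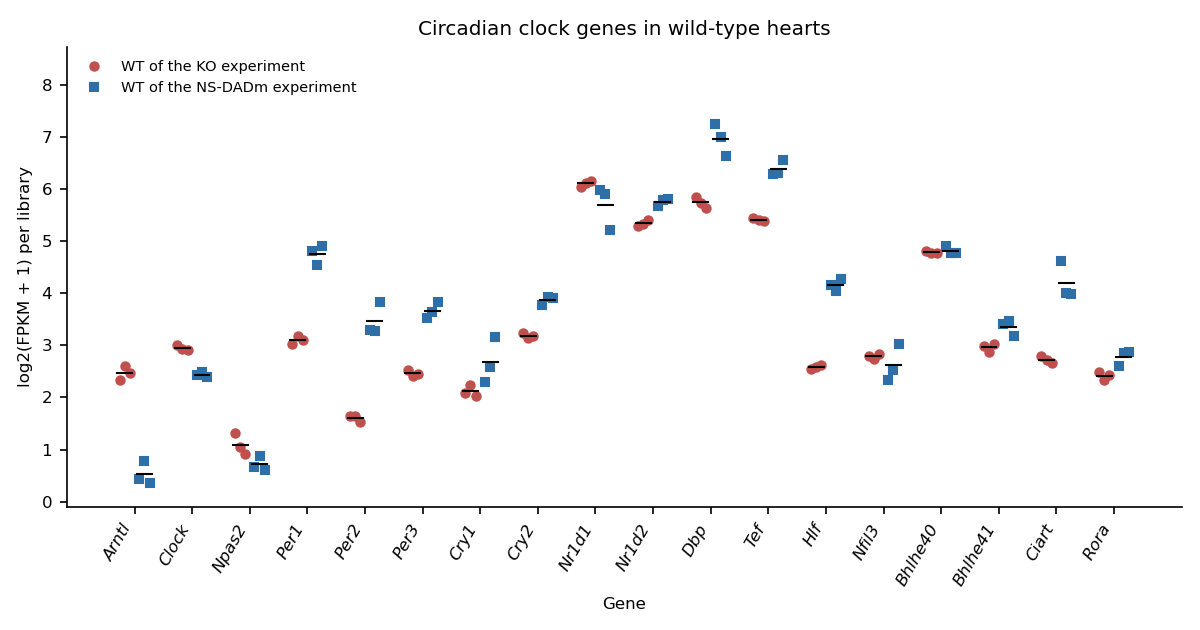
Clock genes in the 6 WT libraries as log2(FPKM + 1), WT of the KO experiment left of WT of the NS-DADm experiment, replicates 1 to 3 from left to right, bars at the group means. Arntl and Clock are higher in the WT of the KO experiment, and the Per genes, Dbp, Tef, Hlf and Ciart are lower, with no overlap.

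Clock genes mostly differed in the same direction between the mutants of the experiments, in a comparison that also holds the genotypes. Of the 12 lower without overlap in KO-experiment WT hearts 11 were lower without overlap in KO than in NS-DADm hearts, and all 3 higher genes were higher. Over all genes the shares were 56.4% of the 2261 lower and 66.5% of the 3451 higher. Bhlhe41, the exception, averaged 9.15 FPKM in KO hearts and 7.62 FPKM in NS-DADm hearts. Arntl averaged 6.78 FPKM in KO hearts and 1.26 FPKM in NS-DADm hearts, Per1 4.87 and 28.09 FPKM, Per2 1.70 and 9.98 FPKM, and Hlf 1.37 and 15.57 FPKM. Dbp averaged 28.05 FPKM in KO hearts and 112.71 FPKM in NS-DADm hearts. The KO means of Per1, Per2, Hlf and Dbp lay below every library of their own WT, and that of Arntl lay above, which widens the gap between the mutants. The hour of collection was not tested, and it cannot be told apart from the experiment.

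Respiratory genes were higher in KO-experiment WT hearts almost throughout. Of the 78 nuclear subunits 70 were higher without overlap (background 31.1%), none was lower (background 20.4%), and 5 were higher past 2-fold (background 1.38%). The median difference was 0.46 as deposited, against 0.04 for all genes, and 0.22 after rescaling, when 51 were higher and 10 lower (backgrounds 12.6% and 46.2%). Ndufa13, an accessory subunit of complex I (chr8:69894163-69902558), was at 710, 765 and 662 FPKM in KO-experiment WT hearts and 323, 300.3 and 311 FPKM in NS-DADm-experiment WT hearts. Atp5j2, a subunit of the membrane part of ATP synthase (chr5:145183704-145191541), was at 3260, 3576 and 3058 FPKM in KO-experiment WT hearts and 1599, 1468 and 1339 FPKM in NS-DADm-experiment WT hearts. Cox6c, Cox7c and Ndufa3 were the others past 2-fold, with log2 differences of 1.08, 1.07 and 1.03. Leaving out replicate 2 of the NS-DADm-experiment WT gave 0.99 for Cox7c, and leaving out its replicate 3 gave 0.92 for Ndufa3. After rescaling, the 4 of largest difference, Ndufa13, Atp5j2, Cox6c and Cox7c, were each under 2-fold, still higher.

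Genes that bring fuel to the mitochondria showed the same direction. Of 30 genes for taking up and oxidizing fatty acids 27 were higher without overlap (background 31.1%) and 1, Lpl, was lower (background 20.4%), with a median of 0.55, or 0.31 after rescaling, when 24 were higher and 5 lower (backgrounds 12.6% and 46.2%). Cd36, the fatty acid transporter, was at 928, 905 and 946 FPKM in KO-experiment WT hearts and 578, 550.0 and 549 FPKM in NS-DADm-experiment WT hearts. Acot1, a thioesterase that frees fatty acids from coenzyme A (chr12:84009502-84017670), was at 34.62, 34.11 and 36.32 FPKM in KO-experiment WT hearts and 15.64, 16.15 and 13.78 FPKM in NS-DADm-experiment WT hearts. The citric acid cycle had 17 of 22 genes higher and 1 lower, with a median of 0.24, and after rescaling 8 were higher and 8 lower with a median of 0.00. Glycolysis had 17 of 24 higher and 5 lower with a median of 0.18, which turned to -0.06 after rescaling, when 6 were higher and 12 lower. Both lists are read against the same backgrounds.

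Targets known to answer to fasting and fatty acids held the largest of these differences. Pdk4, the kinase that shuts pyruvate out of oxidation (chr6:5483351-5496278), was at 447, 443 and 469 FPKM in KO-experiment WT hearts and 122, 134 and 139.5 FPKM in NS-DADm-experiment WT hearts (log2 difference 1.77). Angptl4, a secreted inhibitor of LPL (chr17:33774900-33781575), was at 22.26, 22.79 and 23.27 FPKM in KO-experiment WT hearts and 3.48, 3.84 and 4.19 FPKM in NS-DADm-experiment WT hearts (2.30). The replicates of each group lay close together, and the groups were far apart for both genes. Ucp3, a carrier of muscle mitochondria, was higher by 0.94, just under 2-fold, and by 1.05 or 1.03 without replicate 1 or 2 of the NS-DADm-experiment WT.

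Some genes of the same list, among them known glucocorticoid targets, were lower. Zbtb16, a transcription factor, was at 12.02, 13.37 and 13 FPKM in KO-experiment WT hearts and 22.11, 22.65 and 39.77 FPKM in NS-DADm-experiment WT hearts (log2 difference -1.03, and -0.76 without replicate 3 of the NS-DADm-experiment WT or -0.99 without replicate 1 of the KO-experiment WT). Tsc22d3, Fkbp5 and Klf9 were lower without overlap, with log2 differences of -0.69, -0.72 and -0.48, that of Fkbp5 being -0.37 without replicate 3 and -1.01 without replicate 2 of the NS-DADm-experiment WT, while the metallothionein Mt1 was higher by 0.87. Of the 19 genes of the fasting and glucocorticoid list 10 were higher and 5 lower without overlap (backgrounds 31.1% and 20.4%), and the median of 0.20 turned to -0.04 after rescaling. Angptl4 kept the difference in the mutants, with means of 21.43 FPKM in KO hearts and 4.50 FPKM in NS-DADm hearts. Feeding state was not tested.

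Cytosolic ribosomal protein genes were higher too. Of 78 genes 63 were higher without overlap (background 31.1%) and 2 lower (background 20.4%), with a median of 0.39, or 0.15 after rescaling, when 42 were higher and 14 lower (backgrounds 12.6% and 46.2%). Rpl15 (chr14:18267823-18270986) was at 515, 555 and 515 FPKM in KO-experiment WT hearts and 179, 165 and 152 FPKM in NS-DADm-experiment WT hearts (log2 difference 1.67). Rps6 (chr4:86854099-86857367) was the exception, at 15.60, 15.93 and 19.48 FPKM in KO-experiment WT hearts and 382, 402 and 354 FPKM in NS-DADm-experiment WT hearts (-4.41). Ribosomal protein genes have many near-identical processed copies, so the level of Rps6 in either table is uncertain. Rps6 averaged 16.19 FPKM in KO hearts and 358 FPKM in NS-DADm hearts, close to the WT of the same table.

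Transcript length ran alongside these differences. Across 11050 genes with a length, the difference had a Spearman rho of -0.318 with length and -0.0866 with GC content, as a description over genes of the same 6 libraries. The median difference was 0.23 for the 409 genes under 600 bases and -0.08 for the 1966 genes of 4000 bases or more, and in the KO minus NS-DADm hearts it was 0.22 and -0.02 for the same classes. Against the median of its own length classes, the median member stood 0.30 higher for oxidative phosphorylation, 0.40 for fatty acid oxidation, 0.19 for the ribosome, 0.52 for interferon-stimulated genes and 0.01 for glycolysis. For the clock it stood 0.51 lower, at -0.51. The part of length in the result was not tested beyond these values.

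**Figure D4:**
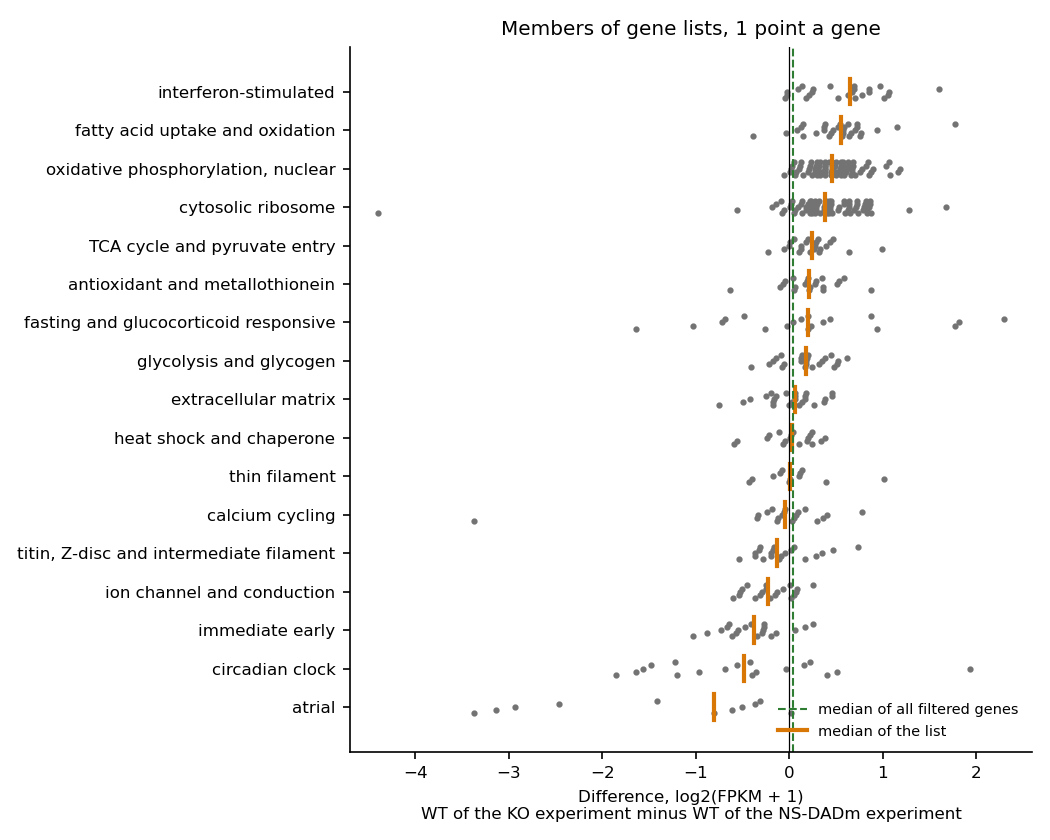
Log2 difference of FPKM + 1, WT of the KO experiment minus WT of the NS-DADm experiment, for the members of 17 gene lists, 1 point a gene, with the list median in orange and the median of all filtered genes, 0.04, as a dashed green line. Interferon-stimulated, fatty acid and respiratory genes lie mostly to the right, and clock, immediate early and atrial genes mostly to the left.

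Interferon-stimulated genes had the highest median of the lists plotted. Of 24 that passed the filter 15 were higher without overlap (background 31.1%) and none was lower (background 20.4%), with a median of 0.65, or 0.46 after rescaling, when 14 were higher and 2 lower (backgrounds 12.6% and 46.2%). Igtp, an interferon-induced GTPase (chr11:58199556-58207592), was at 45.56, 45.33 and 48.55 FPKM in KO-experiment WT hearts and 15.60, 15.39 and 12.89 FPKM in NS-DADm-experiment WT hearts (log2 difference 1.61). Gbp6 and Irgm1, GTPases of the same response, and Ifi27 were past 2-fold with differences of 1.07, 1.01 and 1.06, and after rescaling these 3 were under it. Without replicate 1 of the NS-DADm-experiment WT Gbp6 was at 0.96, without replicate 2 Ifi27 was at 0.96, and Irgm1 was at 0.97 to 0.98 without replicate 1 or 3 of that group or replicate 3 of the KO-experiment WT. Ifit1, Ifit3 and Gbp2, which are standard members of the response, overlapped with differences of -0.04, 0.09 and -0.03. Gbp10, outside the list, was at 6.49, 6.80 and 6.81 FPKM in KO-experiment WT hearts and 0.44, 1.24 and 1.10 FPKM in NS-DADm-experiment WT hearts, and members of this family can share reads.

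Macrophage markers were close between the groups, and 2 neutrophil markers were higher in KO-experiment WT hearts. Macrophage markers summed to 325 to 352 FPKM in KO-experiment WT hearts and 308 to 342 FPKM in NS-DADm-experiment WT hearts. Neutrophil markers summed to 11.72 to 16.54 FPKM in KO-experiment WT hearts and 2.44 to 4.6 FPKM in NS-DADm-experiment WT hearts, and 2 of the 7 passed the filter. These were S100a9, an alarmin of neutrophils, at 7.55, 7.04 and 7.51 FPKM in KO-experiment WT hearts against 1.82, 0.85 and 1.53 FPKM in NS-DADm-experiment WT hearts, and its partner S100a8. S100a8 was also higher, with means of 4.67 FPKM in KO-experiment WT hearts and 0.98 FPKM in NS-DADm-experiment WT hearts. The sum rests mostly on these 2 genes in KO-experiment WT hearts. Their part in the interferon result was not tested. Of 13 MHC genes 8 were higher (background 31.1%) and none lower (background 20.4%) without overlap, with a median of 0.26. After rescaling the median was 0.03, and 2 were higher and 2 lower (backgrounds 12.6% and 46.2%).

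Immediate early genes, which are induced rapidly by stimulation, were lower in KO-experiment WT hearts. Of 20 that passed the filter 15 were lower without overlap (background 20.4%) and 1, Cyr61, was higher (background 31.1%), with a median of -0.38, or -0.59 after rescaling, when 17 were lower and none higher (backgrounds 46.2% and 12.6%). Ier5 was the member past 2-fold, at 5.20, 6.24 and 5.94 FPKM in KO-experiment WT hearts and 15.17, 11.22 and 12.31 FPKM in NS-DADm-experiment WT hearts (log2 difference -1.03). Leaving out replicate 1 of the KO-experiment WT gave -0.96, and leaving out replicate 1 of the NS-DADm-experiment WT gave -0.91. Jund, an AP-1 subunit, was at 21.07, 22.61 and 18.77 FPKM in KO-experiment WT hearts and 46.24, 33.77 and 37.89 FPKM in NS-DADm-experiment WT hearts. Fos itself was at 0.34, 0.81 and 0.80 FPKM in KO-experiment WT hearts and 1.41, 0.72 and 1.35 FPKM in NS-DADm-experiment WT hearts, low values that overlapped.

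Structural and electrical genes of the cardiomyocyte differed by small amounts, more often lower for ion channels, Z-discs and thick filaments and evenly split for thin filaments and calcium cycling. Of 20 ion channel and conduction genes 11 were lower without overlap (background 20.4%) and 1, Hcn2, was higher (background 31.1%), with a median of -0.23, or -0.46 after rescaling. The list of titin, Z-disc and intermediate filament genes had 11 of 20 lower and 5 higher, with a median of -0.13, or -0.37 after rescaling, and thick filament genes had 7 of 10 lower and 1 higher. Thin filament genes had 3 higher and 3 lower of 12, and calcium cycling genes 5 higher and 6 lower of 19; the medians of 0.01 and -0.04 were -0.23 and -0.29 after rescaling. Nebl, a nebulin-like Z-disc anchor of thin filaments, was higher at 55.65, 54.96 and 55.80 FPKM in KO-experiment WT hearts against 25.63, 25.11 and 30.07 FPKM in NS-DADm-experiment WT hearts. Its difference of 1.02 was 0.99 and 0.97 without replicate 1 or 2 of the NS-DADm-experiment WT.

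None of the members of the antioxidant, matrix, heat shock, fibroblast, smooth muscle and HDAC3 corepressor lists was past 2-fold. Their counts without overlap stand against 31.1% of all genes higher and 20.4% lower. Antioxidant and metallothionein genes had 14 of 21 higher without overlap and 1 lower, with a median of 0.21 that turned to -0.03 after rescaling. Extracellular matrix genes had 5 of 25 higher and 8 lower, and heat shock genes 7 of 18 higher and 4 lower, a share near that background. Fibroblast markers had 8 of 12 higher and 1 lower, with a median of 0.36, or 0.12 after rescaling, when 1 was higher and 3 lower (backgrounds 12.6% and 46.2%). Smooth muscle and pericyte markers had 6 of 9 lower and 1 higher, with a median of -0.26. The HDAC3 corepressor list had 4 of 10 genes higher and 3 lower, with a median of 0.00 that was -0.23 after rescaling. It holds not only subunits of that complex but also Hdac1, Hdac2 and the clock genes Nr1d1 and Nr1d2.

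Atrial genes were lower in KO-experiment WT hearts and spread widely within the other group. Of 11 atrial markers that passed the filter 7 were lower without overlap (background 20.4%) and none was higher (background 31.1%). Of these 4 were lower past 2-fold (background 0.388%), and the median of the list was -0.80. After rescaling 10 of the 11 were lower and none higher (backgrounds 46.2% and 12.6%). The 13 markers summed to 358, 361 and 370.3 FPKM in KO-experiment WT hearts, against 785, 519 and 5218 FPKM in replicates 1, 2 and 3 of NS-DADm-experiment WT hearts. Every NS-DADm-experiment WT library was above every KO-experiment WT library, and replicate 3 was far above all. Without it 4 were past 2-fold, and the median was -0.34. Myl7, the atrial regulatory light chain (chr11:5896637-5898782), was at 8.38, 7.27 and 7.38 FPKM in KO-experiment WT hearts and 50.93, 9.77 and 795.5 FPKM in NS-DADm-experiment WT hearts. Its log2 difference was -3.14, and -1.45 without replicate 3.

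The same order of libraries recurred in the other atrial genes past 2-fold. Nppa, the atrial natriuretic peptide (chr4:148000722-148002074), was at 112, 117 and 120 FPKM in KO-experiment WT hearts and 404, 243 and 2728 FPKM in NS-DADm-experiment WT hearts (-2.46, and -1.42 without replicate 3). Sln, the calcium pump inhibitor of the atrium (chr9:53850251-53853849), was at 2.04, 2.37 and 4.07 FPKM in KO-experiment WT hearts and 25.22, 5.13 and 358 FPKM in NS-DADm-experiment WT hearts (-3.37, and -1.76 without replicate 3). Myl4, the atrial essential light chain (chr11:104546017-104587215), was at 8.84, 10.10 and 8.10 FPKM in KO-experiment WT hearts and 51.38, 10.58 and 735.5 FPKM in NS-DADm-experiment WT hearts (-2.94, and -1.30 without replicate 3). Replicate 2 of the NS-DADm-experiment WT was close to the KO-experiment WT for Myl7 and Myl4 and replicate 1 lay between. Not all markers of the list followed this order. Pam was at 176.14, 180.13 and 368.15 FPKM in NS-DADm-experiment WT hearts. Without replicate 3, Stard10 and Gja5 had log2 differences of 0.02 and 0.32, toward higher values in KO-experiment WT hearts. Bmp10, a growth factor of the right atrium, was listed at 0 in the 3 KO-experiment WT libraries, had no listed value in replicates 1 and 2 of the NS-DADm-experiment WT and stood at 35.76 FPKM in replicate 3.

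The sum of fat genes was also highest in replicate 3 of the NS-DADm-experiment WT. White adipocyte markers summed to 3.24, 4.89 and 3.45 FPKM in KO-experiment WT hearts and 11.89, 4.48 and 75.22 FPKM in NS-DADm-experiment WT hearts. Replicate 2 thus lay within the range of the KO-experiment WT. Of the 7 markers 2 passed the filter. Of these Cfd was lower without overlap (background 20.4%), none was higher (background 31.1%), and Adig overlapped with a difference of 0.39. Cfd, the complement protease adipsin, was at 0.99, 0.86 and 1.13 FPKM in KO-experiment WT hearts and 1.53, 1.85 and 51.49 FPKM in NS-DADm-experiment WT hearts, and its difference of -1.86 was -0.43 without replicate 3. Car3, a carbonic anhydrase of fat and muscle outside the list, was at 1.92, 1.14 and 1.11 FPKM in KO-experiment WT hearts and 15.29, 3.36 and 45.26 FPKM in NS-DADm-experiment WT hearts. Ventricular markers summed to 31865, 30694 and 29809 FPKM in KO-experiment WT hearts and 27613, 28735 and 22754 FPKM in NS-DADm-experiment WT hearts, lowest in replicate 3. The part of unequal atrial tissue in the other differences was not tested. Without replicate 3 the median difference was -0.44 for clock genes and 0.42 for respiratory genes, against -0.49 and 0.46 with it.

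**Figure D5:**
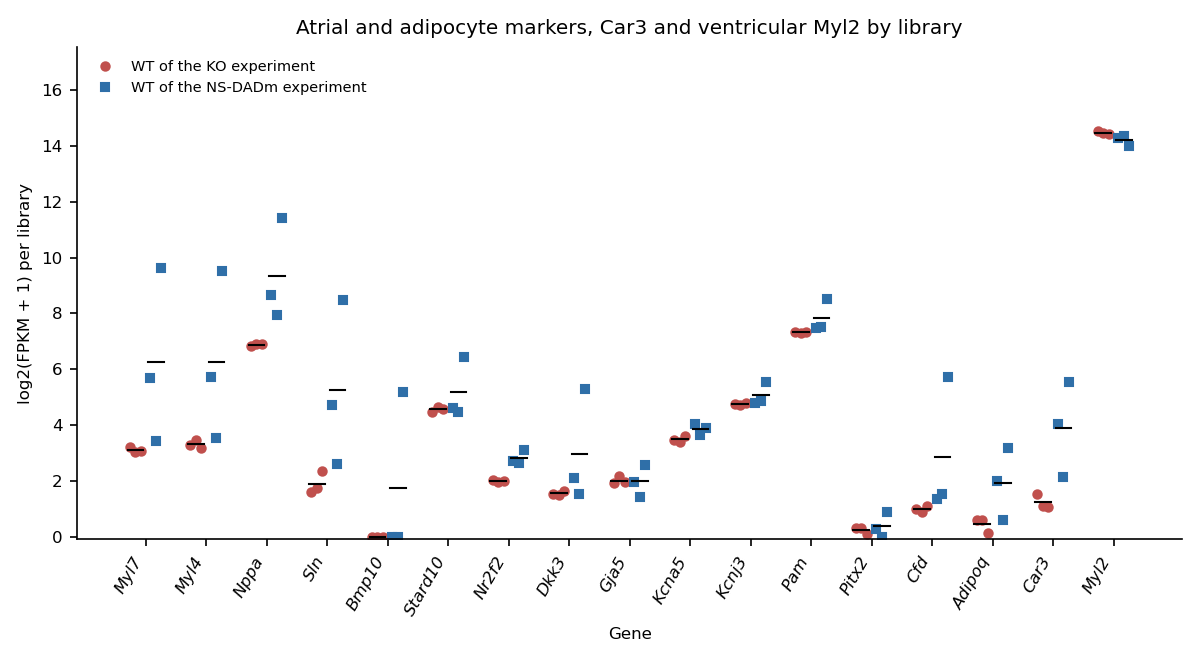
Atrial and fat genes in the 6 WT libraries as log2(FPKM + 1), WT of the KO experiment left of WT of the NS-DADm experiment, replicates 1 to 3 from left to right, bars at the group means and unlisted values drawn at 0. Replicate 3 of the NS-DADm-experiment WT is the highest point of each gene but Kcna5 and the ventricular Myl2, and replicate 2 lies nearest to the WT of the KO experiment for Myl7 and Myl4.

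The spread among replicates also differed. Among genes with at least 5 FPKM in their lowest library, 0 of 7234 in KO-experiment WT hearts and 25 of 7139 in NS-DADm-experiment WT hearts had a highest value over 2 times the lowest. Of these 25 genes 24 were highest in replicate 3, led by Myl7, Sln and Myl4 with highest over lowest ratios of 81.4, 69.8 and 69.5, and followed by Nppa at 11.2. Among them were also Gpx3, a secreted peroxidase, at 192, 203 and 467 FPKM, and Tbx5, a cardiac transcription factor, at 10.12, 10.70 and 20.98 FPKM in NS-DADm-experiment WT hearts. In KO-experiment WT hearts the widest genes were Gm14288 at 1.92 and Plac9a at 1.90. The median coefficient of variation was 4.70% in KO-experiment WT hearts and 6.34% in NS-DADm-experiment WT hearts. Over genes with 40 to 1000 estimated fragments, the squared difference between replicates was 1.10 to 1.27 times counting noise in KO-experiment WT hearts and 2.00 to 3.68 times in NS-DADm-experiment WT hearts, so no pair lay under the noise.

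Some genes were present in one WT group and nearly absent in the other. Ttc41 (chr10:86705811-86776844), a gene of the tetratricopeptide repeat family, was at 259, 217 and 255 FPKM in KO-experiment WT hearts and 0.87, 1.28 and 0.81 FPKM in NS-DADm-experiment WT hearts (log2 difference 6.95). Cd99, a surface glycoprotein, was at 1.35, 1.41 and 4.24 FPKM in KO-experiment WT hearts and 141, 119 and 124 FPKM in NS-DADm-experiment WT hearts (-5.38). These were the extremes of the whole comparison. Ltb4r2, a leukotriene receptor (chr14:55757922-55764066), was at 12.84, 12.73 and 12.15 FPKM in KO-experiment WT hearts, with no listed value in 2 NS-DADm-experiment WT libraries and 0.26 FPKM in replicate 3. Kcnh6, a potassium channel (chr11:106008044-106035595), was at 5.26, 5.79 and 5.73 FPKM in KO-experiment WT hearts, and had 0.06 FPKM in replicate 3 and no listed value in the others. Eif3j2 and Eif3j1, near-identical copies of a translation initiation subunit that can share reads, went opposite ways, with log2 differences of 3.04 and -1.02, and that of Eif3j1 was -0.98 without replicate 1 of the KO-experiment WT and -0.95 without replicate 2 of the NS-DADm-experiment WT.

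Many such genes kept their level in the mutants of the same experiment. Ttc41 averaged 252 FPKM in KO hearts and 1.05 FPKM in NS-DADm hearts. Cd99 averaged 5.39 FPKM in KO hearts, above the 1.35 to 4.24 FPKM of their WT, and 121 FPKM in NS-DADm hearts. By the 2-fold rule without overlap 10.3% of the filtered genes differed between KO and NS-DADm hearts (7.02% higher and 3.29% lower), and 72.3% did not overlap at any size (45.3% higher and 26.9% lower), in a comparison that also holds the genotypes. Of the 153 genes higher in KO-experiment WT hearts 97 were past the rule in the same direction in KO over NS-DADm hearts and 3 in the opposite one. Of the 43 lower genes 29 were past it in the same direction and none in the opposite one. In 83 of the 196 genes, 70 higher and 13 lower, both mutant means also lay within 0.5 on the log2 scale of their own WT. Whether these 83 differ by animals, by library or by the annotation used for each table was not tested.

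A short list of genes known to differ between laboratory mouse strains was looked up, because the strains are not given. Alad, an enzyme of heme synthesis that is duplicated in some strains (chr4:62505984-62520063), was at 61.88, 71.65 and 63.45 FPKM in KO-experiment WT hearts and 14.75, 13.09 and 11.83 FPKM in NS-DADm-experiment WT hearts (log2 difference 2.23). Entpd4, a nucleotidase with a near-identical copy (chr14:69337151-69366742), was at 3.79, 7.72 and 11.77 FPKM in KO-experiment WT hearts and 91.72, 87.02 and 91.54 FPKM in NS-DADm-experiment WT hearts (-3.49). Nnt, the mitochondrial transhydrogenase that is partly deleted in C57BL/6J mice (chr13:119335527-119409257), was expressed in all 6 libraries at 252, 252 and 253 FPKM in KO-experiment WT hearts and 191, 201 and 190.2 FPKM in NS-DADm-experiment WT hearts. In the mutants Alad averaged 27.53 FPKM in KO hearts and 13.71 FPKM in NS-DADm hearts, Entpd4 3.75 and 50.78 FPKM, and Nnt 78.26 and 457 FPKM. Of the 6 genes of the list 4 were higher and 1 lower without overlap in KO-experiment WT hearts (backgrounds 31.1% and 20.4%). Its part in the difference was not tested, since strain and experiment cannot be told apart.

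The Y-linked genes were near 0 in both WT groups. Ddx3y was listed at 0 in the 3 KO-experiment WT libraries and at 0.06 FPKM in 1 NS-DADm-experiment WT library with no listed value in the others, and Eif2s3y was at 0.11 FPKM in each KO-experiment WT library and at 0.05 FPKM in 1 NS-DADm-experiment WT library. In the mutants Ddx3y averaged 21.68 FPKM in KO hearts and 0 FPKM in NS-DADm hearts, and Eif2s3y 46.98 and 0 FPKM. Comparisons of KO with NS-DADm hearts thus also hold this difference in Y-linked genes. Hdac3, the gene targeted in the KO experiment, was expressed in both WT groups, at 27.83, 29.45 and 27.12 FPKM in KO-experiment WT hearts and 32.05, 29.02 and 28.21 FPKM in NS-DADm-experiment WT hearts, values that overlapped. Ncor1, a corepressor that holds HDAC3, differed by -0.09 on the log2 scale.

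Other genes, chosen after their values were seen, belong to other pathways. The lysosomal proteases Ctsb and Ctsl were higher together. Ctsb was at 394, 373 and 397 FPKM in KO-experiment WT hearts and 137, 136 and 135 FPKM in NS-DADm-experiment WT hearts (log2 difference 1.5), and Ctsl at 115, 112 and 118 FPKM against 38.85, 40.42 and 41.87 FPKM (1.49). Scn4b, a sodium channel beta subunit, was at 39.91, 36.38 and 39.05 FPKM in KO-experiment WT hearts and 16.90, 14.15 and 12.81 FPKM in NS-DADm-experiment WT hearts (1.34). Wee1, a cell cycle kinase known as a clock output in mouse liver, was at 3.36, 3.65 and 3.46 FPKM in KO-experiment WT hearts and 10.17, 9.23 and 13.31 FPKM in NS-DADm-experiment WT hearts (-1.39).

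Ratios of related genes within a library do not depend on how a table was scaled, and these were tested. Of 25 pairs 17 did not overlap between the WT groups, 12 higher and 5 lower in KO-experiment WT hearts, and 8 overlapped. Each of the 17 reached p = 0.1 in a two-sided exact permutation test over 3 and 3 libraries, the smallest p this design can give, and an adjusted p of 0.147 (Benjamini-Hochberg over 25 pairs), so none passed 0.05. The Myh6 to Myh7 ratio was 245 ± 5.49 in KO-experiment WT hearts and 190 ± 25.8 in NS-DADm-experiment WT hearts (SD, n = 3 each). The muscle to ubiquitous form of a cytochrome oxidase subunit, Cox7a1 over Cox7a2, was 6.93 ± 0.0731 in KO-experiment WT hearts and 4.65 ± 0.344 in NS-DADm-experiment WT hearts. The ADP/ATP carriers Slc25a4 over Slc25a5 stood at 15.4 ± 0.249 in KO-experiment WT hearts and 21.3 ± 0.452 in NS-DADm-experiment WT hearts, and the creatine kinases Ckm over Ckb at 52.8 ± 1.70 and 65.6 ± 4.35.

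The ratios Arntl over Dbp and Myl2 over Myl7 each divide a gene that was higher without overlap by a gene that was lower. Their own lack of overlap was thus fixed in advance, and they restate the clock and atrial differences without adding support. Arntl over Dbp was 0.0716, 0.0964 and 0.0923 in KO-experiment WT hearts and 0.00240, 0.00567 and 0.00284 in NS-DADm-experiment WT hearts, a log2 difference of 4.67. Arntl was under 1 FPKM in the NS-DADm-experiment WT libraries, so this ratio rests on few fragments there. The ventricular to atrial light chain ratio, Myl2 over Myl7, was 2835, 3125 and 2989 in KO-experiment WT hearts and 389, 2175 and 20.6 in replicates 1 to 3 of NS-DADm-experiment WT hearts. Pairs that overlapped included Tpm1 over Tpm2, the lactate dehydrogenases Ldhb over Ldha, the carnitine palmitoyltransferases Cpt1b over Cpt1a and the enolases Eno3 over Eno1. Ldhb over Ldha was 3.42 ± 0.123 in KO-experiment WT hearts and 3.59 ± 0.242 in NS-DADm-experiment WT hearts (SD, n = 3 each; exact permutation p = 0.4).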

How the data were processed

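RNA from mouse hearts was measured in 12 libraries, 3 per group; the 6 WT libraries are described, with the mutants as a second view. Per the labels' protocols, total RNA was sequenced on an MGISEQ-2000 to a stated average of 60 M (mega) reads, with SOAPnuke 1.5.2 as the adapter filter. GRCm38.p6 is the build in the submitters' processing notes, which also list DESeq2 1.4.5, RSEM 1.2.12, Bowtie2 2.2.5 and HISAT2 2.0.4 without roles. Whether counting used strand is not stated there. The authors deposited FPKM values in 1 table per experiment, per the file headers, normalized separately. No table of counts was used, so no count test was run.

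The KO experiment had 17076 rows, of which 17043 were kept (24 symbols turned into dates, 7 numbers and 2 repeated rows left out), and the NS-DADm experiment 17857, of which 17833 were kept; 15471 symbols were common. Unlisted values, present in 1846 genes in at least 1 WT library, were taken as 0. Another 3 columns with values per sample fitted none of the labels and stayed unused. Genes needed 1 FPKM in 3 of 6 WT libraries. Differences are of mean log2(FPKM + 1), KO-experiment WT minus NS-DADm-experiment WT, calculated with Python 3.11.15, numpy 2.4.6, pandas 2.3.3 and scipy 1.17.1. Depth was estimated from low FPKM values, of which 66.7% to 68.7% (KO experiment) and 73.2% to 76.6% (NS-DADm experiment) lay within 0.15 of a whole number of fragments. By chance 30% would do so at a fixed depth and fragment length. Both were chosen to give the highest share, so the chance share of the best fit is above 30%. The chosen fragment length was 0 in replicate 3 of the NS-DADm-experiment WT and 100 or 150 bases elsewhere, so the depths are rough. The depth estimate covers counting error only. The scripts were tested on simulated data.

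Members, lists and tests were chosen with earlier results of these data known, and some genes are not reported here. Named genes are the 30 most abundant, the 12 largest differences in each direction with at least 5 FPKM in the higher group, list members past the rule (at most 4) with each list's most abundant member, the 8 widest replicate ranges per group, Hdac3 with its corepressors, sex-linked genes and the ratio pairs; any other gene was chosen as an example after its values were seen. Alternatives were equal sums, median centring, a pseudocount of 0.1, other filters, 1.5-fold and 4-fold limits, and leaving out each library. Genes with near-identical copies are uncertain.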

Additional observations from a re-analysis of the deposited data

How the results depend on the processing

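Every named gene past the 2-fold rule kept its direction under the alternatives run. Against 196 genes as deposited (153 higher, 43 lower in KO-experiment WT hearts), rescaling to equal sums gave 91 higher and 89 lower, 134 of them among the 196, and a pseudocount of 0.1 gave 322 (232 higher, 90 lower). A limit of 1.5-fold gave 839 (612 higher, 227 lower) and one of 4-fold gave 30 (19 higher, 11 lower). Requiring at least 1 FPKM in all 6 WT libraries gave 143 genes (111 higher, 32 lower), all of them among the 196. Leaving out 1 library at a time gave 172 to 208 genes, 127 to 166 higher and 33 to 51 lower. Arntl, Kcnh6 and Ltb4r2 passed the filter only through KO-experiment WT libraries and lost the call when any 1 of these was left out. The top 100 genes held 43.6% in KO-experiment WT hearts when all genes of the table were summed. Genes with a highest over lowest ratio above 2 numbered 26 in KO-experiment WT hearts and 121 in NS-DADm-experiment WT hearts when the lowest needed only 1 FPKM, against 0 and 25. The cause of these moves was not tested, except that limits and pseudocounts set how many genes can pass. Past 2-fold as deposited but under it after rescaling were also Acot1, Gdf15 and Nebl; Gdf15 was at 0.95 without replicate 2 of the KO-experiment WT. No paired analysis was possible because the tables were normalized separately and replicate numbers pair no libraries across the experiments. Low genes are limited by depth, since values under 1 FPKM rest on few fragments.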
